A study of Mus musculus with 60 samples.

Results

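The distal piece of the mouse maxilla, the upper jaw, was compared between embryonic days E13.5 and E12.5. Its arrays were taken by their sample labels, 6 of the 60 arrays of the series, 3 labelled distal maxilla at E13.5 and 3 labelled distal maxilla at E12.5. The series profiled distal and proximal pieces of the mandible and maxilla of C57Bl/6 embryos on Affymetrix expression arrays, from 3 µg of total RNA per array. All 6 arrays belong to the batch numbered 2, as do the 3 arrays of the distal maxilla at E14.5 and the 3 of the proximal maxilla at each of E13.5 and E12.5 that are set beside them below. The labels name no genetic change or treatment, give the tissue of the distal arrays as distal bone, and say neither where the jaw was cut nor whether each array holds its own embryo. Each p-value thus rests on the spread among arrays alone, which may be technical. In a piece of tissue, a lower signal from fewer cells of a type and one from less RNA per cell cannot be told apart.

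The maxilla grows from the maxillary process of the first pharyngeal arch. Its mesenchyme comes from the cranial neural crest, lies under a surface epithelium, and gives rise to membranous bone, which forms directly from condensed mesenchyme without a cartilage model, as well as to palate and tooth mesenchyme. Osteoblasts in such bone switch on matrix and mineral genes in sequence, while the cartilages of the nasal region, the muscles, the vessels and the branches of the trigeminal nerve develop around them.

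Signals are given on the log2 scale, where 1 unit stands for a 2-fold difference. The median signal over the probe sets lay between 6.16 and 6.20 on the 6 arrays, and the largest share of equal values between any pair of arrays in the table was 0.424%, far from what a duplicated file would give. A gene whose mean at an age was at or under log2 4.78, the highest 25th percentile of any array, has no level shown there, and its fold is given as a lower bound against that value. The jaw was checked with Hand2, a transcription factor of the lower jaw, which averaged 7.14 ± 0.16 at E13.5 and 7.12 ± 0.06 at E12.5 in the distal maxilla (SD, n = 3 each), against 12.87 ± 0.02 in the distal mandible at E12.5. Pitx1, another mandibular factor, averaged 8.76 ± 0.04 at E13.5 and 8.57 ± 0.02 at E12.5 in the distal maxilla, against 10.77 ± 0.02 in the distal mandible at E12.5. Both were lower than in the mandible. Hand1, another factor of the lower jaw, hardly separated the jaws, with 5.84 ± 0.09 at E13.5 and 6.04 ± 0.06 at E12.5 in the distal maxilla, against 6.20 ± 0.11 in the distal mandible at E12.5. For the tissue label bone, 1 of 16 bone matrix genes was at or under 4.78 at E13.5 and 3 at E12.5, among them Ibsp (bone sialoprotein), and 0 of 11 bone regulators were that low at either age. These counts do not test the label, since 4.78 is a low level and the share of all genes under it was not taken. Xist, the RNA of the inactive X chromosome, had 11.14, 11.28 and 11.34 at E13.5, against 10.62, 10.59 and 10.54 at E12.5. The ages did not overlap, and the arrays of an age lay close together. The difference of 0.67 was not called in the fit that takes the spread from all 60 arrays (limma, adjusted p = 0.56), but it was with the arrays of batch 2 alone (limma, adjusted p = 1.38e-11).

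Of 18193 genes tested, 6458 or 35.5% were called between the ages (limma, adjusted p under 0.05), 3433 or 18.9% higher at E13.5 and 3025 or 16.6% lower. Most called differences were small. At least 2-fold differences were found for 508 genes or 2.79%, and of these 460 or 2.53% of all genes were higher at E13.5 while 48 or 0.264% were lower. The arrays of the ages did not overlap for 9600 genes or 52.8% of all genes, 4832 or 26.6% with E13.5 above and 4768 or 26.2% with E13.5 below. The split of small differences depends on the scaling: with each array centred on its median over genes, 2183 genes were higher and 6470 lower, and the median difference of all genes moved by -0.14 to -0.16 on the log2 scale. With a repeated quantile normalization 3121 were higher and 4209 lower.

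**Figure D1:**
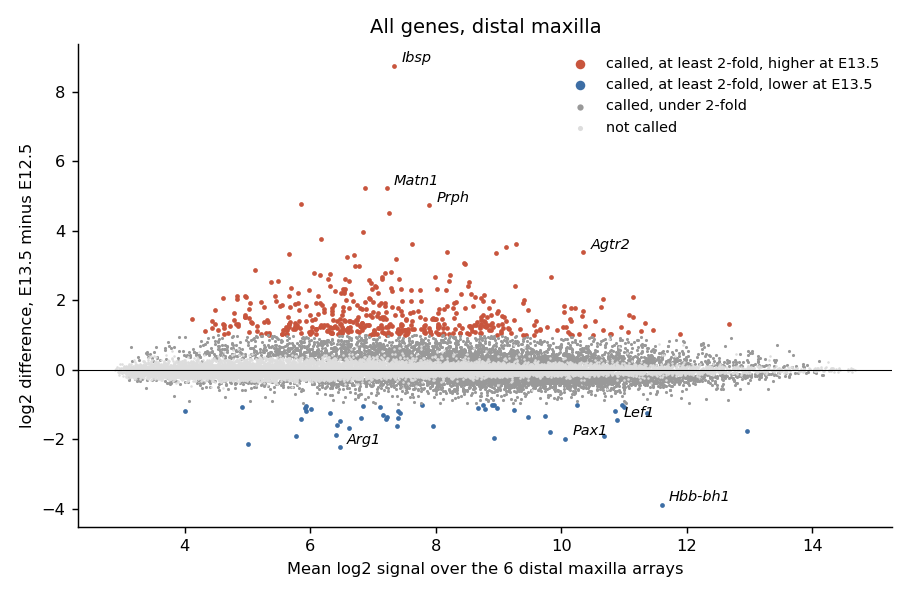
The log2 difference between E13.5 and E12.5 (vertical axis) is plotted against the mean log2 signal over the 6 distal maxilla arrays (horizontal axis), a point for each of 18193 genes. The 460 genes at least 2-fold higher at E13.5 reach 8.74 for Ibsp, while the 48 at least 2-fold lower reach -3.89 for Hbb-bh1.

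The 15 genes with the largest rise belonged mainly to bone, cartilage, fibrous matrix and neurons. Their differences ran between 3.32 and 8.74 with adjusted p of at most 1.54e-10 (limma), and the SD of the 3 arrays of an age was at most 0.413. The promoter windows of the 4 genes with the largest rise that have a single annotated start are shown here. They cover the 250 bases before the annotated start (RefSeq, mouse build GRCm38.p6, on the coding strand), and 13 of the 15 genes have an entry. Capitals mark a match on either strand to the Runx-type motif TGTGGT (reverse complement ACCACA), the homeodomain motif TAATTA (its own reverse complement) or the TATA motif TATAAA (reverse complement TTTATA).
Ibsp at chr5:104299037-104299286: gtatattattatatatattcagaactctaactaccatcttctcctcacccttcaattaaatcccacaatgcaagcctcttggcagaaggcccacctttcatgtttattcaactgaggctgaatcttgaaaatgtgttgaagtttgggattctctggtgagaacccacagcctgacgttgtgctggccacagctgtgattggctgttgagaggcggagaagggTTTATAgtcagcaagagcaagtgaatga
Matn1 at chr4:130944135-130944384: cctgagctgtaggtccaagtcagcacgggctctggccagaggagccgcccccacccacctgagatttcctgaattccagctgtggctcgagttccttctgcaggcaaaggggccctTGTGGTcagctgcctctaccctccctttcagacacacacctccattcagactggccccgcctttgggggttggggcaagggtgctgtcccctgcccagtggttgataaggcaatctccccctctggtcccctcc
C1qtnf3 at chr15:10952082-10952331: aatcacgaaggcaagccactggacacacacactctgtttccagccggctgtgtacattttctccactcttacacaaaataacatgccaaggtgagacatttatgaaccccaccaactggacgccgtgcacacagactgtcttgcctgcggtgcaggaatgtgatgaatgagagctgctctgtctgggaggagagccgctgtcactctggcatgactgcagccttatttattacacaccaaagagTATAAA
Prph at chr15:99054924-99055173: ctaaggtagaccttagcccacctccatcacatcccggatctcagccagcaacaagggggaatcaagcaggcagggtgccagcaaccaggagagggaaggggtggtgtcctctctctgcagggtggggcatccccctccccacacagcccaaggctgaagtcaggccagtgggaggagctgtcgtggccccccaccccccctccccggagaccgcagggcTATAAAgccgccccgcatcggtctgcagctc
All 4 lie on the plus strand. Matn1 held TGTGGT, which 14% of 32851 such windows hold. Prph and C1qtnf3 held TATAAA and Ibsp its reverse complement, a match found in 12.4% of windows. TAATTA, found in 4.84% of windows, matched in none of the 4. A match is a string of letters and not a measured binding site.

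**Figure D2:**
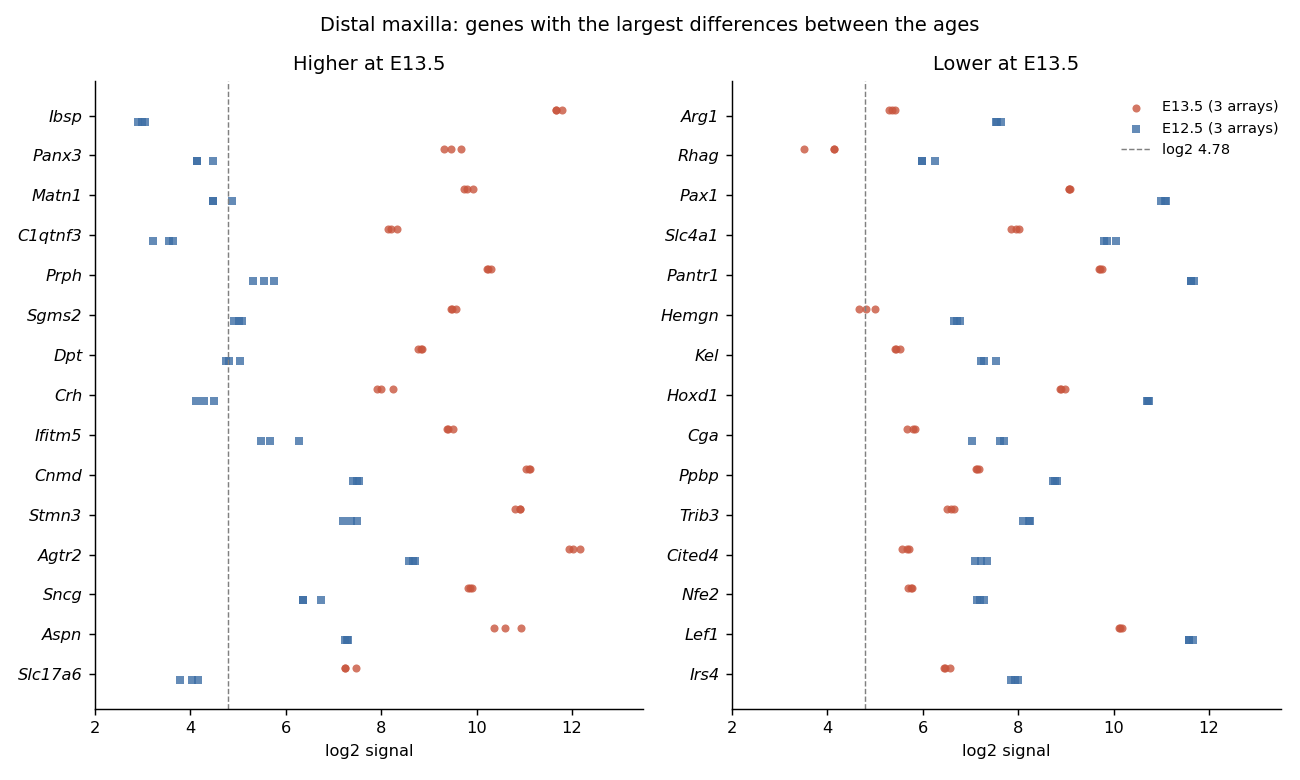
Log2 signal (horizontal axis) of every array for the 15 genes with the largest rise and the 15 with the largest fall, circles for the 3 arrays at E13.5 and squares for the 3 at E12.5, with a dashed line at log2 4.78. Each gene's E13.5 arrays lie wholly above or wholly below its E12.5 arrays, which the choice of genes required.

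Bone matrix and mineral genes rose at E13.5. Ibsp, bone sialoprotein of the mineralising matrix, had 11.79, 11.67 and 11.67 at E13.5, against 2.89, 3.04 and 2.98 at E12.5. Every E13.5 array was far above and every E12.5 array under the level of 4.78. The difference was 8.74 ± 0.29 (SE, limma, adjusted p = 1.1e-28), at least 122-fold, and a second probe set of the gene was higher by 4.92. Of the 16 measured genes of the list of bone matrix and mineral, 11 were called higher and 0 lower, with a median difference of 0.999 against -0.02 over all genes. The shares over all genes, 18.9% higher and 16.6% lower, apply to every list count between these ages. Ifitm5, a membrane protein of mineralising osteoblasts, had 9.38, 9.40 and 9.50 at E13.5, against 5.48, 5.67 and 6.27 at E12.5, a difference of 3.62 ± 0.18 (SE, adjusted p = 1.46e-21). The groups did not overlap, and the E12.5 arrays were the more spread. Omd, the osteoblast proteoglycan osteomodulin, rose by 2.77. Phex, an endopeptidase that governs phosphate and mineral, rose by 2.62, though its other probe set differed by 0.02 and was not called. Alpl, the alkaline phosphatase that supplies phosphate for mineral, rose by 1.97 and Creb3l1, which drives collagen secretion in osteoblasts, by 1.20. Dmp1, a matrix protein of osteocytes, averaged 6.02 at E13.5, while its E12.5 mean of 3.92 was under 4.78. Of the collagen I genes, Col1a1 rose by 0.80, and Col1a2 differed by 0.22 and was not called. Mepe of the late mineral matrix and the collagenase Mmp13 were not called.

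Further genes of bone lay outside the lists. Panx3, a channel protein of osteoblasts and prehypertrophic chondrocytes, had 9.69, 9.46 and 9.32 at E13.5, against 4.48, 4.14 and 4.14 at E12.5. The E12.5 arrays were all under 4.78, so the rise was at least 26.2-fold (5.24 ± 0.32, SE, adjusted p = 3.63e-18). The gene's other probe sets differed by 0.26 and 0.02 and were not called, so this value rests on a single probe set. Sgms2, the sphingomyelin synthase whose human variants cause bone fragility, had 9.57, 9.47 and 9.48 at E13.5, against 5.09, 4.90 and 5.01 at E12.5, 22.7-fold higher without overlap. Its second probe set rose less, by 1.43 against 4.50 on the log2 scale.

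Regulators of bone formation were mixed. Of 11 measured, 4 were called higher and 3 lower, with a median of 0.22. Sp7, also called osterix and required for osteoblast differentiation, averaged 9.16 at E13.5 and 7.38 at E12.5, a rise of 1.79 ± 0.16 (SE, adjusted p = 1.18e-12), and stood apart from the rest. Msx2, a homeobox factor of arch and skull mesenchyme, rose by 0.75 and Runx3 by 0.56, but the other probe sets differed by -0.21 for Msx2 and -0.17 for Runx3 and were not called. Twist1 and Twist2, which restrain osteoblast differentiation, fell by 0.65 and 0.55. The call of Runx3 was lost under both other scalings.

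Markers of osteoclasts, the cells that resorb bone, gave 3 of 8 called higher and 0 lower. Mmp9, a gelatinase of osteoclasts, rose by 2.37, the cathepsin Ctsk by 0.66 and Dcstamp, needed for osteoclast fusion, by 0.39. Acp5, the tartrate-resistant phosphatase that defines the cell, was 7.33 at E13.5 and 7.13 at E12.5 and was not called, and Calcr and Ocstamp were under 4.78 at both ages. The call of Dcstamp was lost under both other scalings and without single arrays.

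The next day gave further values for bone. In 15 of the 16 bone matrix genes the E14.5 arrays were called higher than the E13.5 arrays, with 15.6% of all genes called between those ages, 9.49% higher and 6.07% lower. Since both comparisons share the E13.5 arrays, their values are only placed side by side. The mean of the 16 genes was 7.55 at E12.5 and 9.24 at E13.5, and it was 10.86 at E14.5. Dmp1 averaged 3.92, 6.02 and 11.22 and Ibsp 2.97, 11.71 and 13.45 at the 3 ages. Mmp13 averaged 3.23, 3.58 and 7.39, so that it had a level shown at E14.5 only.

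Cartilage genes rose together at E13.5. Of 22 measured, 18 were called higher and 0 lower, with a median of 1.57. Matn1, matrilin 1 of the cartilage matrix, had 9.92, 9.81 and 9.75 at E13.5, against 4.87, 4.46 and 4.48 at E12.5. The difference was 5.22 ± 0.32 (SE, adjusted p = 7.32e-18), at least 32.9-fold. Cnmd, chondromodulin, which keeps vessels out of cartilage, had 11.13, 11.04 and 11.10 at E13.5, against 7.50, 7.40 and 7.53 at E12.5, a rise of 3.61 without overlap. Matn4 rose by 3.07, Hapln1, the link protein of aggrecan, by 2.56, Col9a3 by 2.41 and Acan, aggrecan itself, by 2.21. Col2a1, the main cartilage collagen, rose by 1.54. Among the regulators, Sox6 rose by 0.91 and Sox5 by 0.43, while Sox9, which starts the cartilage programme, was 8.99 at E13.5 and 9.09 at E12.5 and was not called. Markers of hypertrophic cartilage, Col10a1 and Ihh, were not called and stayed between 5.05 and 5.19. The mean of the cartilage genes was 6.78 at E12.5 and 8.33 at E13.5, and it was 8.49 at E14.5.

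Fibrous connective tissue genes gave 16 of 21 called higher and 1 lower, with a median of 1.04. Dpt, dermatopontin, which organises collagen fibrils, had 8.83, 8.85 and 8.78 at E13.5, against 4.75, 4.81 and 5.04 at E12.5, 15.5-fold higher. Aspn, asporin, a small proteoglycan that binds collagen and calcium, had 10.92, 10.60 and 10.37 at E13.5, against 7.30, 7.24 and 7.29 at E12.5, 10.2-fold higher. Neither gene's groups overlapped. Thbs2, a matrix thrombospondin, rose by 2.02, Tnmd, tenomodulin of tendon and ligament, by 1.97, and Col14a1 and Col12a1, fibril-associated collagens, by 1.92 and 1.83. Scx, a transcription factor of tendon progenitors, was the member that fell, by 0.55. Collagen levels of the mesenchyme were high at both ages, with Col3a1 at 14.22 at E13.5 and 13.97 at E12.5.

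C1qtnf3, a secreted C1q and TNF related protein also called cartducin, had 8.33, 8.21 and 8.14 at E13.5, against 3.54, 3.23 and 3.63 at E12.5, a difference of 4.76 ± 0.23 (SE, adjusted p = 1.25e-21). All E12.5 arrays were under 4.78, and the rise was at least 10.9-fold. Agtr2, the angiotensin type 2 receptor of fetal mesenchyme, had 12.17, 12.01 and 11.93 at E13.5, against 8.59, 8.67 and 8.72 at E12.5, 10.4-fold higher. It was the brightest of the 15 genes at E13.5.

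Most markers of skeletal muscle, mural cells and macrophages were called higher. Of 22 muscle genes, 13 were called higher and 0 lower, with a median of 0.73. Under centring on the median 9 of the 22 were higher and 1 lower. Myh8, perinatal myosin heavy chain, rose by 1.64 and Tnnt2, a troponin of early muscle, by 1.18, whereas the progenitor factors Myf5 and Pax7 differed by 0.15 and 0.49 and were not called. Of 8 mural cell markers 6 were higher and 1 lower. Rgs5 and Kcnj8, both of pericytes, rose by 1.52 and 1.50. Of 12 endothelial genes 5 were higher and 1 lower with a median of 0.01, and under centring on the median 3 were higher and 5 lower. Macrophage markers gave 12 of 14 higher and 0 lower, with a median of 0.68, led by F13a1 (1.54), the mannose receptor Mrc1 (1.28) and lysozyme Lyz2 (1.21). In the mast cell list 4 of 8 were higher and 0 lower: the chymase Cma1 averaged 7.69 at E13.5 and 4.94 at E12.5, a rise of 2.75, and the carboxypeptidase Cpa3 rose by 2.14. The mast cell proteases Mcpt4, Tpsb2 and Tpsab1 lay between 4.87 and 5.22 and were not called.

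Surface epithelium genes rose modestly and those of keratinising layers more unevenly. Of 19 surface epithelium genes 12 were called higher and 0 lower, with a median of 0.54. Dsp, desmoplakin of desmosomes, rose by 1.10, Perp by 1.03, and the simple keratins Krt18 and Krt8 by 0.92 each. Krt5 and Grhl2 were not called. Of 13 genes of epidermal stratification 9 were higher and 0 lower. Krt17, a keratin of periderm and activated epithelium, had 9.48, 9.17 and 9.32 at E13.5, against 6.43, 6.68 and 6.85 at E12.5, a rise of 2.67 ± 0.23 (SE, adjusted p = 2.63e-13). A second probe set of Krt17 differed by 0.04 and was not called. Dsc3, desmocollin 3, rose by 2.61, with another probe set at -0.10 that was not called, and Krt1, a keratin of suprabasal cells, rose by 1.91. Krtdap was at least 4.24-fold higher, its E12.5 mean being under 4.78. The cornified envelope gene Ivl was not called. The mean of the stratification genes was 6.04 at E12.5 and 7.08 at E13.5, and it was 8.15 at E14.5.

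Of 13 genes of airway and ciliated epithelium 2 were called higher and 1 lower, where 18.9% of all genes were higher and 16.6% lower. Bpifa1, a secreted protein of the nasal lining, averaged 3.82 at E12.5 and 5.13 at E13.5, and it reached 10.85 at E14.5. Foxj1, the regulator of motile cilia, averaged 5.06, 5.17 and 7.21 at those ages.

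**Figure D3:**
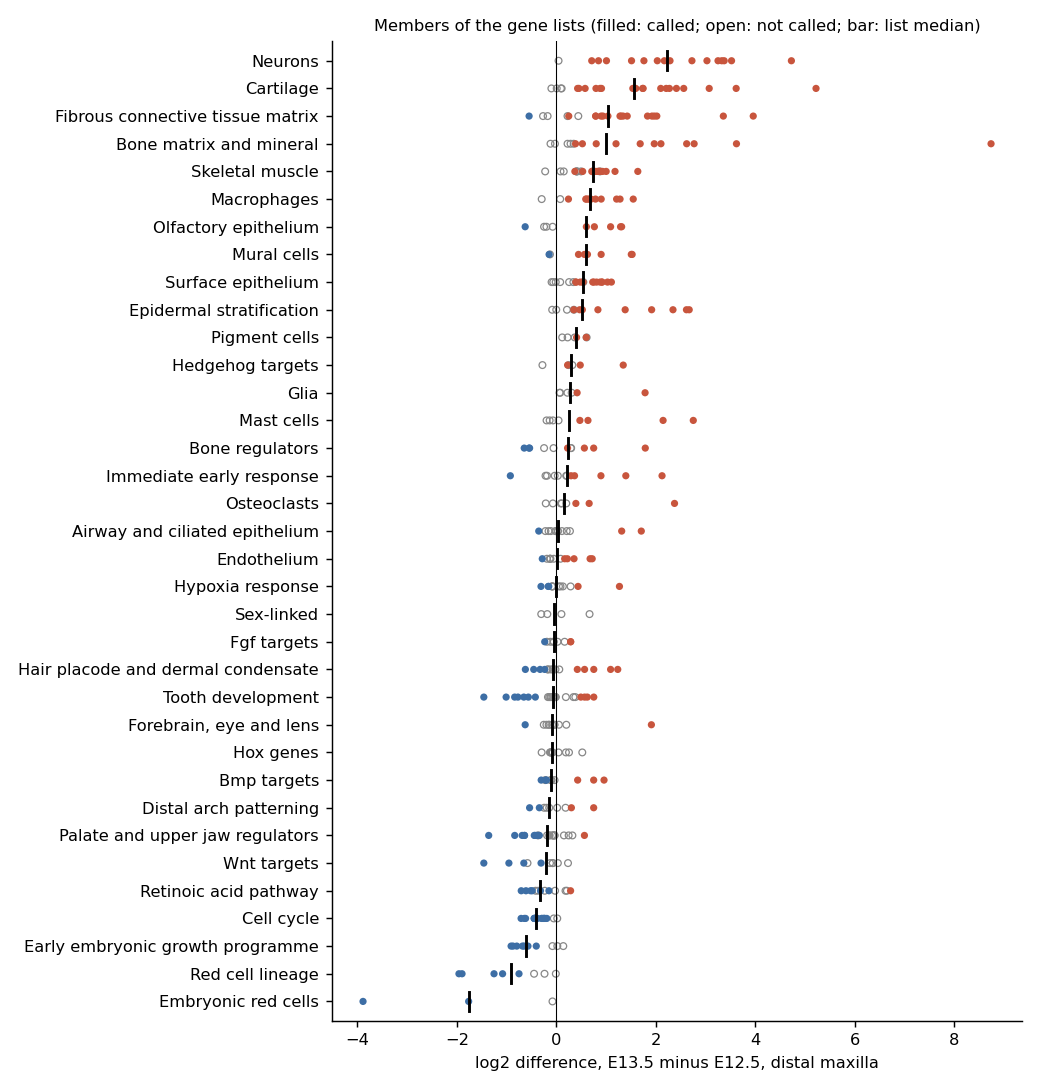
The log2 difference between E13.5 and E12.5 in the distal maxilla (horizontal axis) is shown for every measured member of the 35 gene lists (rows), with filled points for called members, open points for members not called and a bar at each list's median. Medians run from 2.23 for neurons to -1.76 for embryonic red cells.

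Neuronal genes showed the largest median of any list. Of 16 measured, 15 were called higher at E13.5 and 0 lower, with a median of 2.23. Prph, peripherin, the intermediate filament of peripheral neurons, had 10.31, 10.24 and 10.21 at E13.5, against 5.32, 5.74 and 5.53 at E12.5. The difference was 4.72 ± 0.23 (SE, adjusted p = 1.31e-21) or 26.4-fold, with no overlap. Its other probe sets were less responsive, at 0.39, -0.22 and -0.22, of which only the first was called. Stmn3, a stathmin of growing neurites, had 10.91, 10.80 and 10.92 at E13.5, against 7.50, 7.20 and 7.37 at E12.5. Sncg, gamma-synuclein of sensory and motor neurons, had 9.83, 9.86 and 9.90 at E13.5, against 6.36, 6.37 and 6.75 at E12.5. Slc17a6, the vesicular glutamate transporter of sensory ganglia, had 7.46, 7.24 and 7.24 at E13.5, against 3.77, 4.04 and 4.17 at E12.5, at least 5.80-fold higher. None of these groups overlapped. A second probe set of Slc17a6 rose by 1.53, against 3.32 for the one used. Snap25, of the synaptic vesicle fusion machinery, rose by 3.25. Isl1 and Pou4f1, transcription factors of sensory neurons, rose by 3.03 and 2.28, and the neurofilament genes Nefm and Nefl by 2.03 and 1.51. Gap43, the growth cone protein, was 11.10 at E13.5 and 11.05 at E12.5 and was the member not called.

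The rise of neuronal genes differed from the proximal piece and was not kept at the next age. The mean of the 16 genes was 9.71, 9.58 and 9.65 on the 3 distal arrays at E13.5, against 7.31, 7.40 and 7.44 at E12.5, and 7.56 to 7.65 at E14.5. In the proximal maxilla the mean was 11.38 to 11.43 at E13.5, against 12.30 to 12.32 at E12.5. The proximal piece was the brighter at both ages. In it 0 of the 16 genes were called higher and 10 lower, where 35.9% of all genes were called, 22.2% higher and 13.7% lower. The distal change minus the proximal change was called higher for all 16 genes, with a median of 3.66, where 7.33% of all genes were called higher and 11.2% lower. Between E14.5 and E13.5 in the distal piece, 15 of the 16 were called lower, with a median of -1.94, where 6.07% of all genes were called lower. The rise and this fall share the E13.5 arrays, so they are not separate findings.

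Glial genes gave 2 of 6 higher and 0 lower, with a median of 0.26, where 18.9% of all genes were higher and 16.6% lower. Fabp7, a fatty acid binding protein of Schwann cell precursors and satellite glia, had 11.21, 11.05 and 11.07 at E13.5, against 9.35, 9.34 and 9.31 at E12.5, a rise of 1.78, and Erbb3, the neuregulin receptor of Schwann cells, rose by 0.42. Sox10, which defines the neural crest glial lineage, was 8.35 at E13.5 and 8.27 at E12.5 and was not called. For all 6 genes the distal change was called higher than the proximal change, where 7.33% of all genes were. Proximally all 6 were called lower, with a median of -0.66, so much of that difference is a proximal fall. Of 9 olfactory epithelium genes 5 rose and 1 fell. Neurod1 and Ebf2, neuronal differentiation factors, rose by 1.31 and 1.29, Lhx2 by 1.09 and Gng8 by 0.76. Omp, the marker of mature olfactory neurons, was 6.40 at E13.5 and 6.60 at E12.5 and was not called. Where the pieces were cut at each age is not given, and its part in the neuronal and glial differences was not tested.

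Crh, the gene of corticotropin-releasing hormone, had 8.24, 8.002 and 7.91 at E13.5, against 4.11, 4.29 and 4.49 at E12.5, at least 9.65-fold higher, and averaged 5.68 at E14.5. It rose by 1.41 in the proximal piece. The interaction was called (adjusted p = 4.95e-05), but its size is not measured, since the distal E12.5 mean was under 4.78.

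Red cell genes fell at E13.5. Hbb-bh1, the beta-type globin of primitive red cells, had 9.66, 9.67 and 9.64 at E13.5, against 13.54, 13.56 and 13.54 at E12.5, the largest fall among all genes (-3.89 ± 0.10, SE, adjusted p = 3.18e-33) and 14.8-fold lower. Hba-x, the embryonic alpha-type globin, fell by 1.76, while Hbb-y, another embryonic beta-type globin, was 14.59 at E13.5 and 14.67 at E12.5 and was not called. Both Hbb-y means lie near 14.81, the highest value on any array, and whether this limits a fall was not tested. All 3 embryonic globins were called lower under both other scalings, in the proximal piece, and between E14.5 and E13.5 in the distal piece. The shares of all genes called lower were 13.7% proximally and 6.07% between E14.5 and E13.5. Of 8 genes of the red cell lineage 5 were called lower and 0 higher, with a median of -0.92. Slc4a1, the red cell anion exchanger band 3, had 8.02, 7.85 and 7.96 at E13.5, against 9.86, 9.79 and 10.05 at E12.5, 3.89-fold lower without overlap. Of its other probe sets, a fall of 2.03 was called and a difference of -0.29 was not. Rhag, of the Rhesus complex in the red cell membrane, had 3.50, 4.14 and 4.13 at E13.5, against 5.99, 6.25 and 5.98 at E12.5, at least 2.45-fold lower. Hemgn, Kel, Rhd, Nfe2 and Klf1, which mark erythroid cells or regulate them, fell by 1.90, 1.89, 1.25, 1.47 and 1.08. Ppbp, a platelet chemokine, had 7.14, 7.17 and 7.11 at E13.5, against 8.73, 8.77 and 8.80 at E12.5, 3.09-fold lower. The proximal piece gave similar values, with Hbb-bh1 lower by 3.68 and Slc4a1 by 1.80, and no red cell gene of either list differed in its change between the pieces.

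**Figure D4:**
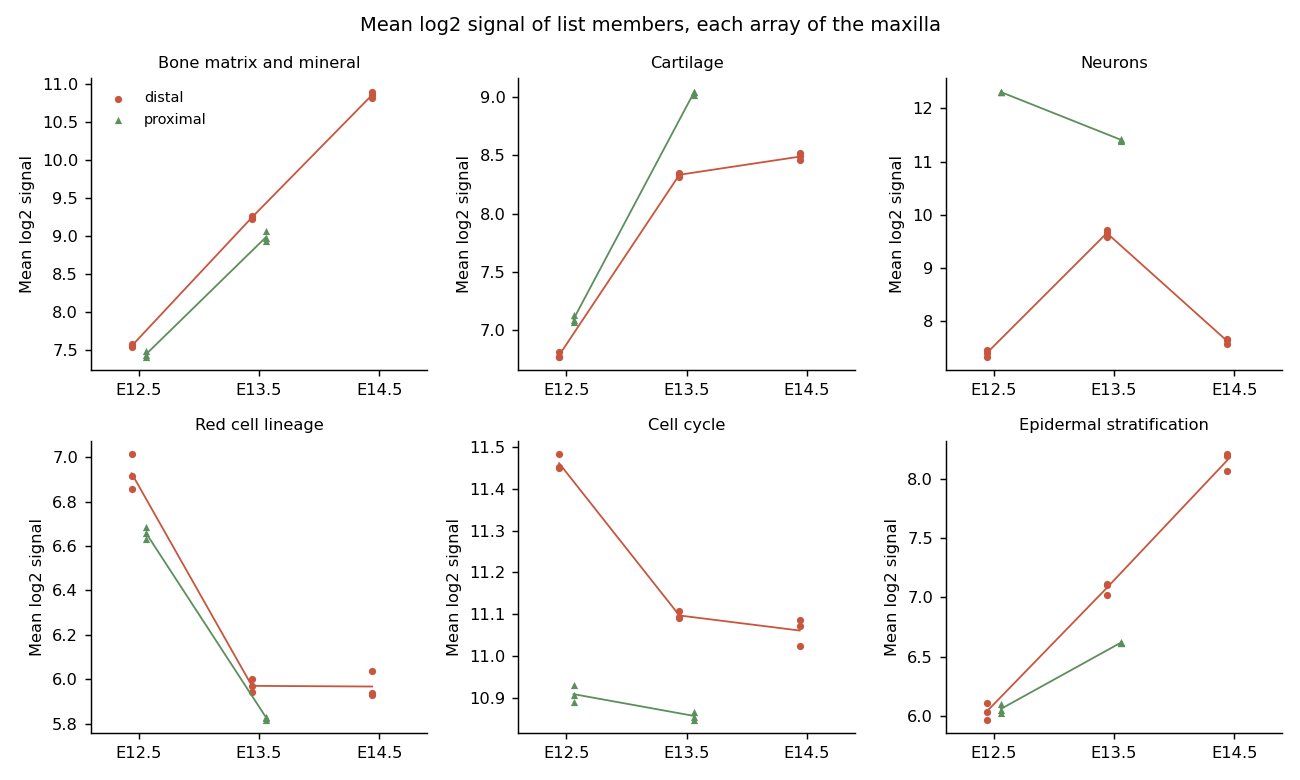
Mean log2 signal of a list's members (vertical axes, which differ in range and do not start at 0) on every array of the distal maxilla at E12.5, E13.5 and E14.5 (circles) and of the proximal maxilla at E12.5 and E13.5 (triangles), with lines through the means of 3 arrays. Neuronal genes reach 9.65 at E13.5 between 7.38 and 7.61 in the distal piece, while bone matrix genes climb at each age.

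Cell cycle genes were lower at E13.5, by small amounts. Of 19 measured, 17 were called lower and 0 higher, with a median of -0.41. The mean of the list was 11.11, 11.09 and 11.09 at E13.5, against 11.45, 11.45 and 11.48 at E12.5, without overlap. Tyms, thymidylate synthase, fell by 0.71, but its 3 other probe sets differed by -0.04, -0.08 and -0.03 and were not called. Plk1, a mitotic kinase, fell by 0.65, Cenpe, a kinetochore motor, by 0.62 and Top2a, topoisomerase II alpha, by 0.43. Cdk1 and Pcna were not called. In the proximal piece 2 were higher and 4 lower, with a median of -0.07, and the distal change was called lower than the proximal change for 17 of the 19. That test called 11.2% of all genes lower. The distal mean stood above the proximal mean at both ages, 11.10 against 10.86 at E13.5 and 11.46 against 10.91 at E12.5.

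Genes of an early embryonic growth programme, which decline in many tissues as embryos age, fell as well: 7 of 10 were called lower and 0 higher. Igf2bp1, an RNA-binding protein of growing embryonic tissue, fell by 0.91 and Hmga2, a chromatin protein with a like pattern, by 0.87. Trim71 and Igf2bp3 fell by 0.80 and 0.68. Hmga2 averaged 13.10 at E12.5 and 12.22 at E13.5, and it was 11.71 at E14.5. Lin28a and Lin28b were under 4.78 at both ages.

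Regulators of the palate and upper jaw were mostly lower or not called. Of 23 measured, 10 were called lower and 1 higher, with a median of -0.19. Tbx2, a T-box repressor of facial mesenchyme, had 8.88, 8.77 and 8.72 at E13.5, against 10.12, 10.16 and 10.18 at E12.5, a fall of 1.36 ± 0.10 (SE, adjusted p = 1.07e-15) without overlap. Tbx3 fell by 0.84, Osr2, of palatal shelf growth, by 0.69, and Shox2, of the anterior palate, by 0.64. Another probe set of Osr2 differed by -0.03 and was not called. Other probe sets of Tbx3 were called lower at -0.905 and -0.884 and not called at -0.18 and -0.003. Tgfb3, the growth factor of the palatal midline seam, was the member that rose, by 0.56. Msx1 and Pdgfra differed by 0.04 and 0.06 in size and were not called. Pax1, a paired-box factor of pharyngeal and facial mesenchyme outside the list, had 9.07, 9.05 and 9.08 at E13.5, against 11.07, 11.11 and 11.00 at E12.5, 3.98-fold lower. Its other probe set fell by 0.67. Hoxd1, a Hox gene outside the Hox list, had 8.99, 8.88 and 8.90 at E13.5, against 10.73, 10.71 and 10.69 at E12.5, 3.46-fold lower. Of the 11 measured genes of that list 0 were called by limma, and centring or quantile normalization called 1 lower.

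Tooth development genes were divided, with 4 of 23 higher and 7 lower, where 18.9% of all genes were higher and 16.6% lower. Lef1, a nuclear effector of Wnt signalling needed for tooth buds, had 10.14, 10.12 and 10.19 at E13.5, against 11.59, 11.66 and 11.58 at E12.5, a fall of 1.46 ± 0.14 (SE, adjusted p = 9.42e-12) or 2.75-fold. A second probe set fell by 1.66. Barx1, a marker of molar mesenchyme, had 10.44, 10.52 and 10.45 at E13.5, against 11.44, 11.51 and 11.49 at E12.5, 2.01-fold lower. Irx1 and Fgf8, a growth factor of oral epithelium, fell by 0.84 and 0.77. Shh, the hedgehog ligand of tooth and palate epithelium, averaged 8.23 at E13.5 and 7.47 at E12.5, a rise of 0.75, and Pax9 and Sostdc1 rose by 0.49 and 0.62. Another probe set of Shh differed by 0.03 and was not called. Among 16 genes of hair placodes and dermal condensates 5 were higher and 4 lower. Sox2 rose by 1.23 and Tbx18 fell by 0.62.

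Of 10 Wnt targets 4 were lower and 0 higher: besides Lef1, Axin2, the feedback inhibitor of the pathway, had 8.91, 8.84 and 8.81 at E13.5, against 9.77, 9.83 and 9.84 at E12.5, a fall of 0.95, Nkd1 fell by 0.66 and Lgr5 by 0.31. Of 13 retinoic acid genes 6 were lower and 1 higher, with a median of -0.32. Aldh1a2, a retinoic acid synthesis enzyme, fell by 0.71, Crabp2, which carries retinoic acid to the nucleus, by 0.61, the receptor Rarb by 0.52 and Stra6, the retinol transporter, by 0.49. Of 6 hedgehog targets 3 were higher and 0 lower: Hhip, a ligand-binding inhibitor, rose by 1.34, the receptor Ptch1 by 0.48 and Gli1 by 0.23. Under either other scaling 2 were higher and 1 lower, since Gli1 was then not called and Foxl1, at -0.28 here, was called lower. Other probe sets of Ptch1 differed by -0.01 and -0.08 and were not called. Bmp targets were even, with 3 of 10 higher and 3 lower. Id4 rose by 0.96, Msx2 by 0.75 and the pseudoreceptor Bambi by 0.43, while Smad6 fell by 0.31. Fgf targets gave 2 of 9 higher and 1 lower, none by over 0.29, and 0 higher and 5 lower with arrays centred on their medians. Their first counts lie near the shares over all genes, 18.9% higher and 16.6% lower. Among 9 genes that pattern the distal arch 2 were higher and 2 lower. Msx2 led these, and Dlx6 and Tfap2b fell by 0.54 and 0.34 while the endothelin Edn1 rose by 0.30. The calls of Msx2 and Tfap2b were lost when probe sets were averaged, and those of Dlx6, Tfap2b and Edn1 were each lost without at least 1 array.

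The change of several patterning genes differed from that in the proximal piece. Barx1 fell by 1.01 in the distal and rose by 0.64 in the proximal maxilla, and the distal minus proximal change was -1.65 ± 0.19 (SE, adjusted p = 2.92e-09). Rarb fell by 0.52 in the distal and rose by 0.56 in the proximal piece (difference -1.08, adjusted p = 8.52e-06). Lef1 fell by 1.46 in the distal piece, and its proximal difference of -0.23 was not called (difference -1.23, adjusted p = 6.37e-06). The distal change was called lower than the proximal change for 12 of 23 palate and upper jaw genes, 9 of 23 tooth genes, 5 of 13 retinoic acid genes, 4 of 10 Wnt targets and 5 of 6 hedgehog targets. It was called higher for 1 palate and upper jaw gene and for 0 of the other lists. Among all genes 11.2% were called lower and 7.33% higher in this test. Proximally, 10, 11, 6, 2 and 5 genes of these lists, in that order, were called higher, and 5, 2, 3, 2 and 0 lower. A lower distal change is thus not always a distal fall, since 3 of 6 hedgehog targets were called higher distally and 0 lower.

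**Figure D5:**
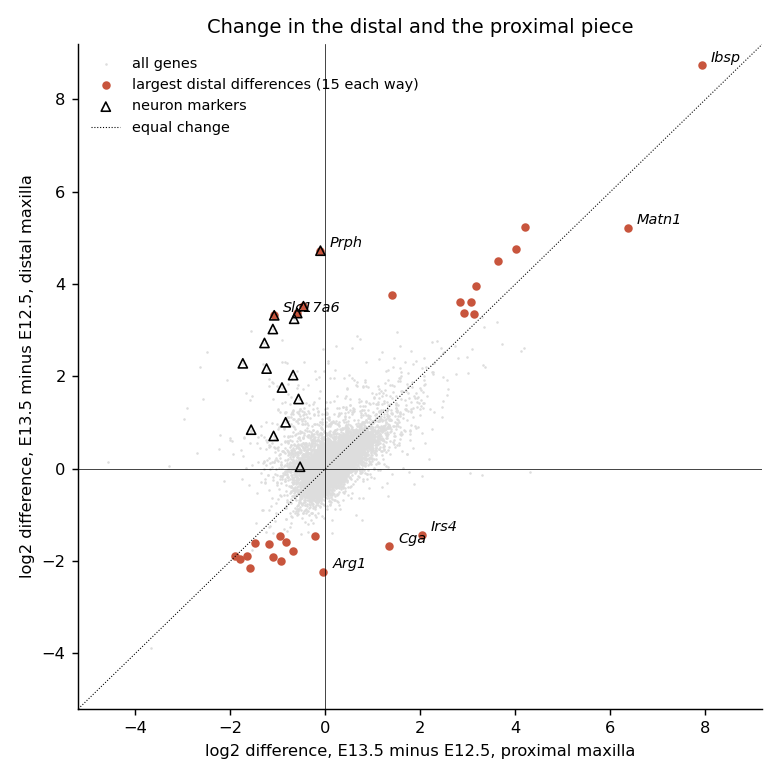
The log2 difference between E13.5 and E12.5 in the distal maxilla (vertical axis) is set against that in the proximal maxilla (horizontal axis) for all genes (small points), the 15 genes with the largest rise and the 15 with the largest fall (filled points) and the 16 neuron markers (triangles). Ibsp lies at 8.74 distally and 7.92 proximally, while neuron markers lie at positive distal and mostly negative proximal values.

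Across the genes with the largest rise, 11 of 15 were also called higher in the proximal piece, 1 lower and 3 not called. Ibsp rose by 7.92 there and Matn1 by 6.36, and the interaction was called for neither (adjusted p = 0.184 and 0.0765), with differences of 0.81 ± 0.41 and -1.14 ± 0.46 (SE) that include E12.5 means under 4.78. Of 22 cartilage genes 4 had a distal change called lower than the proximal one, among them Hapln1 (-1.57, adjusted p = 0.00231), and of 16 bone matrix genes 1 was higher and 2 were lower. Of the 15 genes with the largest fall, 10 were called lower in the proximal piece, 2 higher and 3 not called. Col22a1, a collagen of tissue junctions, rose by 1.68 in the distal piece and differed by -0.12 in the proximal piece, where it was not called. A called change beside an uncalled one is not by itself a test of a difference between the pieces. The interaction test called 3375 genes or 18.6% of all genes.

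Arg1, arginase, had 5.29, 5.35 and 5.42 at E13.5, against 7.65, 7.54 and 7.56 at E12.5, 4.69-fold lower, and its proximal means were 5.45 at E13.5 and 5.49 at E12.5. Cga, the common alpha subunit of pituitary glycoprotein hormones, had 5.84, 5.68 and 5.79 at E13.5, against 7.03, 7.70 and 7.63 at E12.5, 3.21-fold lower, and rose by 1.34 in the proximal piece. Irs4, an insulin receptor substrate, had 6.45, 6.46 and 6.58 at E13.5, against 7.92, 7.84 and 8.01 at E12.5, 2.70-fold lower, and rose by 2.02 in the proximal piece. Its other probe set differed by -0.03 and was not called. Pantr1, a noncoding RNA, had 9.72, 9.70 and 9.75 at E13.5, against 11.63, 11.68 and 11.63 at E12.5, 3.79-fold lower. Trib3, a stress-induced pseudokinase, had 6.50, 6.58 and 6.65 at E13.5, against 8.24, 8.10 and 8.23 at E12.5, and fell by 1.49 in the proximal piece. Cited4, a transcriptional coactivator, fell by 1.58, but its other probe set differed by -0.14 and was not called.

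Among the genes with the largest interaction, some had changed in the proximal piece only. Neurod4, a proneural factor, was under 4.78 in the distal piece at both ages, and averaged 3.95 at E13.5 and 8.54 at E12.5 in the proximal piece. Oc90, an inner ear otoconial protein, averaged 5.79 at E13.5 and 5.87 at E12.5 in the distal piece, against 10.31 and 6.00 in the proximal piece. Tectb, of the tectorial membrane of the inner ear, and Six6, of the pituitary and eye, were under 4.78 in the distal piece at both ages and averaged 7.19 and 7.54 in the proximal piece at E13.5. Pomc, the pituitary prohormone, averaged 6.89 at E13.5 and 7.05 at E12.5 in the distal piece, against 9.01 and 6.96 in the proximal piece. Nhlh2, a helix-loop-helix factor of neurons, rose by 2.54 in the distal piece and fell by 2.49 in the proximal piece. Ppp1r17 was at least 4.34-fold higher in the distal piece, where its E12.5 mean was under 4.78, and fell by 2.64 in the proximal piece. Ppp1r1c rose by 2.99 in the distal piece and fell by 1.56 in the proximal piece.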

How the data were processed

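The deposited values are log2 signals made with RMA, per the submitters' processing notes; its version, and whether every array was normalized in 1 run, are not given in the sources used here. No further scaling was applied. Of 45101 probe sets, 34945 carry a single gene symbol in the platform annotation. Each of 18193 genes was represented by its probe set of highest mean on the 60 arrays. A single limma fit (version 3.58.1, R 4.3.3) took all arrays with a mean for each of 20 groups and 40 residual degrees of freedom, used eBayes with trend, tested both directions, and adjusted by Benjamini-Hochberg over all genes. The number of arrays limits the precision.

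The comparison, its members and the 35 gene lists were chosen with earlier results of these data known. Lists share members. Named by rule were, in each direction, the 15 called genes that differed most, with a mean of at least log2 6 at the higher age, no overlap between ages, and no predicted gene model, sex-linked gene or haemoglobin; 6 genes per direction of the interaction, without the condition on overlap; and up to 4 called members of each list. Any other gene, and any other probe set, was chosen after its values were seen. Alternatives were quantile normalization, centring on array medians, omission of dim genes (highest group mean under log2 7.66), averaged probe sets, each probe set as a unit, fits to fewer arrays (those compared, or batch 2), other eBayes settings, quality weights, a block for the replicate number, and leaving out each array.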

Additional observations from a re-analysis of the deposited data

Results flagged for a closer look

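The change between E13.5 and E12.5 differed between the distal and the proximal maxilla for 20 of the named genes (limma interaction test, adjusted p under 0.05), and the values below are the distal change minus the proximal change on the log2 scale. It was higher in the distal piece for Nhlh2 (5.03), Ppp1r17 (4.85), Prph (4.83), Neurod4 (4.73), Ppp1r1c (4.55), Slc17a6 (4.40), Stmn3 (3.98), Sncg (3.96), Crh (2.35) and Dpt (0.79). It was lower in the distal piece for Oc90 (-4.39), Irs4 (-3.46), Six6 (-3.44), Tectb (-3.14), Cga (-3.03), Pomc (-2.21), Arg1 (-2.19), Lef1 (-1.23), Pax1 (-1.05) and Pantr1 (-0.81). The sizes for 7 of these genes are not measured: the distal means of Neurod4, Six6 and Tectb were at or under log2 4.78 at both ages, those of Ppp1r17, Slc17a6 and Crh at E12.5, and the proximal mean of Dpt at E12.5. Groups of 3 arrays were too small to test for single arrays that stand apart.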

How the results depend on the processing

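The 15 genes with the largest rise and the 15 with the largest fall kept their direction and call under the 17 alternatives with genes as units, wherever these gave a value. Single probe sets are not part of that count. Some other probe sets of Panx3, Prph, Slc4a1, Irs4 and Cited4 were not called, and those of Prph at -0.22 ran the other way. Against 6458 genes called, the totals were 5560 to 5648 without single arrays, 8255 with only the arrays compared, 7197 with batch 2 only, 7330 after quantile normalization and 8653 after centring; of the 6458, 5459 to 5552, 6437, 6331, 5954 and 5208 were among them in that order. Deviations of same-numbered arrays correlated at -0.08, -0.04 and -0.01 between the ages of the distal piece, and between distal and proximal arrays at 0.44, 0.10 and 0.01 at E13.5 and 0.12, 0.002 and 0.14 at E12.5, so the numbers were not taken as pairing. With the replicate block on only the arrays compared 8117 genes were called, and 4637 for the interaction, against 4823 without it. All probe sets as units gave 10364 calls in the distal and 10260 in the proximal piece and 774 of at least 2-fold, where genes gave 508. Without single arrays the 2-fold count was 484 to 521, the proximal count 5600 to 6297, the count between E14.5 and E13.5 2181 to 2385 and the interaction count 2726 to 3256. Array quality weights, whose estimation did not converge, gave 4571 and 6232 for the last comparisons. The causes of these shifts were not tested.

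Leaving out dim genes kept 309 of the 2-fold count and moved list medians to -0.058 for bone regulators, which reversed, 0.66 for bone matrix, 1.52 for osteoclasts, 1.92 for cartilage, 1.16 for fibrous matrix, -0.45 for Wnt targets, -0.78 for early growth, -0.081 for hypoxia, 0.29 for immediate early genes, 1.65 for stratification, 0.93 for olfactory epithelium, 0.083 for endothelium, 2.14 for mast cells, -1.25 for red cell lineage, 0.60 for pigment cells, -0.63 for forebrain, eye and lens and 0.10 for sex-linked genes; fewer members were then tested. Averaging the probe sets of each gene gave 0.13 for bone regulators, 0.85 for fibrous matrix, 0.11 for hedgehog targets, -0.36 for cell cycle, -0.46 for early growth, 1.98 for neurons, 0.19 for glia, 0.62 for muscle and 0.19 for pigment cells, and Hoxa5, not called, turned to 0.22. After quantile normalization they were 0.12 for bone regulators, -0.18 for hair placodes, -0.32 for palate, -0.38 for retinoic acid, 0.18 for hedgehog targets, 0.11 for immediate early genes, 0.44 for surface epithelium, 0.16 for glia, 0.59 for macrophages, -1.04 for red cell lineage and -0.17 for sex-linked genes. Centring on array medians, which lowers every difference by the same amount, gave 0.085 for bone regulators, 0.86 for bone matrix, 0.014 for osteoclasts, 1.43 for cartilage, 0.90 for fibrous matrix, -0.22 for tooth, -0.21 for hair placodes, -0.33 for palate, -0.28 for distal arch, -0.46 for retinoic acid, -0.36 for Wnt, 0.14 for hedgehog, -0.25 for Bmp and -0.19 for Fgf targets, -0.55 for cell cycle, -0.75 for early growth, -0.15 for hypoxia, 0.064 for immediate early genes, -0.23 for Hox genes, 0.40 for surface epithelium, -0.11 for airway, 0.46 for olfactory epithelium, 2.09 for neurons, 0.12 for glia, 0.59 for muscle, -0.12 for endothelium, 0.45 for mural cells, 0.54 for macrophages, 0.12 for mast cells, -1.90 for embryonic red cells, -1.06 for red cell lineage, 0.25 for pigment cells and -0.18 for sex-linked genes. Without single arrays the palate median was -0.24 to -0.14 and the olfactory median 0.48 to 0.69. Calls of Runx3, Dcstamp, Edn1, Tbx18, Shox2, Dlx6, Aldh1a2, Emx2, Etv5, Mlana, Tnnc2, Tfap2b and Slc2a1 were each lost without at least 1 array. The mean of probe sets ended those of Msx2, Tfap2b, Shh, Ptch1, Tyms, Erbb3 and Mitf. Signals near the level of 4.78 limit what the dimmer genes can show.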

Other observations

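The remaining lists moved little or unevenly. Of 12 hypoxia response genes 2 were called higher and 3 lower, where 18.9% of all genes were higher and 16.6% lower. Ndrg1, a stress and differentiation gene, averaged 9.17 at E13.5 and 7.91 at E12.5, and Pdk1 was higher by 0.43, while the glucose transporter Slc2a1 and the glycolytic enzyme Pgk1 were lower by 0.31 and 0.17 in size. Other probe sets of Pdk1 differed by 0.15, -0.05 and 0.11 and were not called. Of 12 immediate early genes 5 were higher and 1 lower. Egr2, also a factor of myelinating glia and bone, averaged 6.72 at E13.5, while its E12.5 mean of 4.59 was under 4.78, at least 3.83-fold. Egr1 and Fos were higher by 1.40 and 0.90, and Jun averaged 10.55 at E13.5 and 11.47 at E12.5. With each array centred on its median, 3 of the 12 were higher and 3 lower.

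Of 6 pigment cell genes 2 were higher, Mitf by 0.60, with another probe set at -0.09 that was not called, and Mlana at least 1.19-fold, its E12.5 mean being under 4.78. Of 11 forebrain, eye and lens genes 1 was higher and 1 lower. Otx2, a head and sensory organ factor, had 7.15, 7.04 and 6.97 at E13.5, against 5.15, 4.90 and 5.38 at E12.5. Emx2 averaged 8.96 at E13.5 and 9.59 at E12.5. None of the 4 sex-linked genes was called in the fit across all arrays. Kdm5d, a gene of the Y chromosome, had 7.73 to 7.89 at E13.5, against 8.10 to 8.16 at E12.5. Its ages thus did not overlap and ran opposite to those of Xist. Other probe sets of Kdm5d differed by 0.09 and -0.06 and were not called. Whether the mix of sexes differs between the ages was not tested.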
